A study of Rattus norvegicus with 8 samples.

Results

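The miR-34 and miR-449 family was examined in small RNA from rat femur around titanium implants. Rows were taken by name, as miR-34 or miR-449 with the letter a, b or c and any arm suffix, and 9 of the 974 miRNA rows met this rule, all among the 604 catalogued (rno-) rows. They are both arms of miR-34a, miR-34b, miR-34c and miR-449a, and the 5p arm of miR-449c. The family, with rno-miR-449c-5p and rno-miR-34a-5p as its leading names, was chosen by levels measured in these same libraries, among them the difference of rno-miR-449c-5p between the diets. The contrast between diets is therefore given below as a description, with no p for single members; counts of members past a threshold are printed beside the same count over all miRNAs, and nothing is read from them.

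All rats were male Wistar, fed either a high-fat diet (hyperlipidemic group, 4 libraries) or a normal diet (normal group, 4 libraries) for 8 weeks. Both groups received titanium implants in both femoral shafts. The bone analysed lay no more than 1 mm from the implant and was collected on day 10, at 12 to 13 weeks of age. The model of hyperlipidemia is thus a diet, and every library comes from injured, implant-bearing bone with its marrow and blood. The labels do not say whether a library is 1 rat or a pool, so the spread given is that between libraries.

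Values are reads scaled to 1000000 reads of the catalogued class (RPM). Each low value is a whole multiple of the worth of 1 read, and the reads recovered in this way show that the scale rests on 2643501 to 4809883 reads in hyperlipidemic and 990804 to 1748976 in normal libraries, without overlap. Skeletal and mesenchymal miRNAs (miR-140, miR-199a, miR-214) made up 2.79% to 5.996% of the catalogued signal in hyperlipidemic and 3.62% to 7.64% in normal libraries. Erythroid miRNAs (miR-144, miR-451, miR-486) made up 19.2% to 33.1% and 7.77% to 20.2%, and normal replicates 3 and 4 (8.95% and 7.77%) stood below all other libraries. The erythroid rows did not move one way, and each overlapped between the diets. Hyperlipidemic means were higher for miR-144-3p (149865 against 60314 RPM) and miR-451-5p (71149 against 48012 RPM). They were lower for miR-486 (7478 against 9023 RPM), miR-144-5p (2847 against 3184 RPM) and miR-451-3p (2.86 against 3.89 RPM). In bulk bone, fewer cells of a type and less of a miRNA per cell cannot be told apart.

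A miRNA finds its targets mainly through its seed, the bases at positions 2 to 8 of the mature strand, so that miRNAs with a common seed are expected to share targets. Mir34a is a direct transcriptional target of p53, and miR-34 restrains cell division through cyclin-dependent kinases and cyclins. MiR-34b, miR-34c and miR-449 are best known from multiciliated epithelia and testis, and loss of both clusters in mice impairs cilia formation and fertility. In mouse bone, miR-34a has been described as restraining osteoclasts, and miR-34b and miR-34c as acting on osteoblast proliferation and differentiation.

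The mature 5p strands are printed to show what makes these 5 miRNAs a family; capitals mark the seed, and the sequences are those of RefSeq for the build GRCr8, in which all 9 rows found a match.
miR-34a-5p: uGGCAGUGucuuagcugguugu
miR-34b-5p: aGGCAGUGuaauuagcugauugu
miR-34c-5p: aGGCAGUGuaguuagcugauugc
miR-449a-5p: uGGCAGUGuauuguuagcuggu
miR-449c-5p: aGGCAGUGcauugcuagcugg
The seed GGCAGUG was found in these 5 mature strands and in no other of the 693 mature names in the reference table, and all 5 were in the deposited table. Compared base by base from the 5′ end, miR-34b-5p and miR-34c-5p differed at 2 of 23 bases and miR-449a-5p and miR-449c-5p at 3 of 21. MiR-34a-5p shared 15 of 22 bases with miR-449a-5p and 11 of 22 with miR-34b-5p. No gap was allowed, so stretches that 2 strands hold at shifted positions counted as differences. MiR-34b-5p is also longer (23 bases against 22). These figures therefore do not rank likeness to miR-34a-5p. Reads of such close pairs could be assigned differently by different counting rules, and how the authors counted is not stated.

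The 4 rows of 3p strands belong to the same hairpins but do not carry the family seed. Those of miR-34b and miR-34c share a seed of their own, marked again in capitals.
miR-34b-3p: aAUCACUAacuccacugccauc
miR-34c-3p: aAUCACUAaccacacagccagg
No other mature name in the reference table had this seed. The family label therefore holds for the 5p strands, and the 3p rows are members by name.

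The 5 hairpins lie at 3 places in the genome (GRCr8). Mir34a stands alone at chr5:165815952-165816053 on the plus strand, overlapping an annotated long non-coding RNA. Mir34c (chr8:60306091-60306167) and Mir34b (chr8:60306609-60306692) lie on the minus strand with 441 bases between them, within the span of the protein-coding gene Hoatz and next to Btg4. Mir449c (chr2:46402375-46402473) and Mir449a (chr2:46403910-46404000) lie on the plus strand with 1436 bases between them. The nearest protein-coding genes on one side are Mcidas and Ccno, which drive the multiciliated cell fate, and on the other Gpx8. The hairpins of this pair are shown because the results below compare the levels of their 5p strands. Capitals mark the mature strands.
Mir449c: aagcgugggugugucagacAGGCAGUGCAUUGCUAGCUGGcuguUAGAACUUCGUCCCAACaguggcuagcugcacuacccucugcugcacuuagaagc
Mir449a: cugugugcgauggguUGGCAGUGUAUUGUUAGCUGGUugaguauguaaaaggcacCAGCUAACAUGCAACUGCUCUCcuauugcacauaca
The 3p strand of Mir449c was not analysed here.

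All 5 seed-bearing strands were present in every library, at moderate to low levels. The 9 rows together held 0.0244% to 0.0852% of the catalogued signal. MiR-34a-5p was the highest member in 7 of 8 libraries, at a mean of 251 RPM over all libraries, and ranked between 110th and 162nd among catalogued miRNAs. MiR-449a-5p followed with a mean of 144 RPM, above miR-34c-5p (86.9 RPM) in 7 of 8 libraries. MiR-449c-5p (12.3 RPM) and miR-34b-5p (8.13 RPM) came last in each library, and miR-34b-5p was above miR-449c-5p in 5 of 8, so that the order of these 2 was not fixed. Normal replicate 4 was the exception at the top, with miR-34c-5p (192 RPM) just above miR-34a-5p (182 RPM). Ligation of adapters is not equally efficient for all miRNAs, so this is an order of reads and not of molecules.

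**Figure D1:**
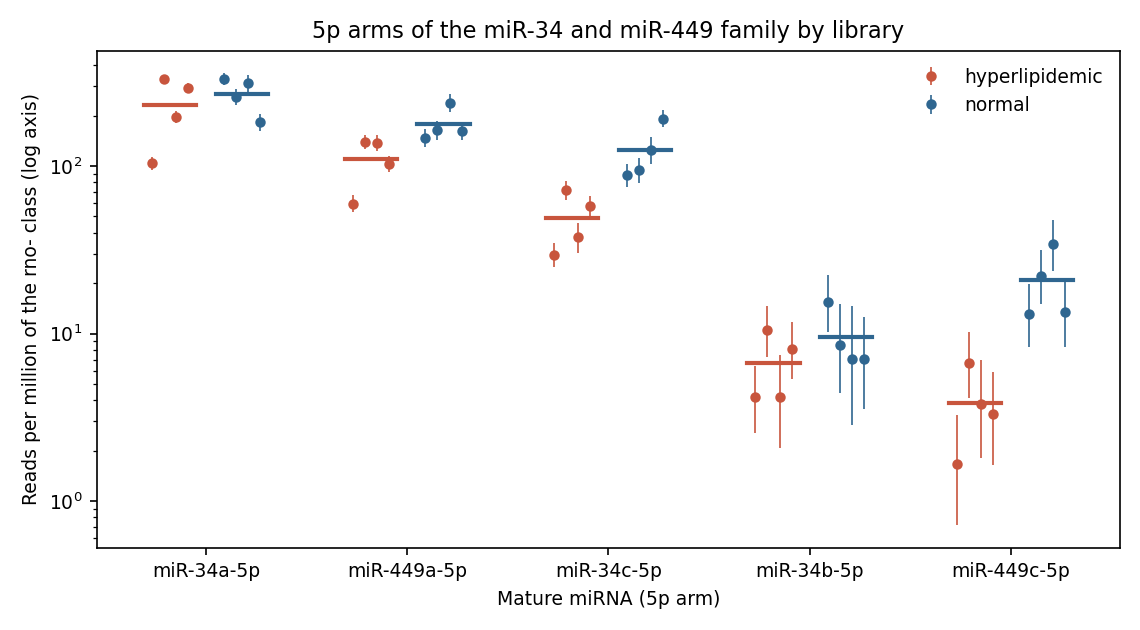
Level of each 5p strand in each library, in RPM of the catalogued class on a log axis. Points are libraries with exact 95% Poisson intervals of their reads and bars are group means; miR-449c-5p, miR-34c-5p and miR-449a-5p show no overlap between the diets, while miR-34a-5p and miR-34b-5p do.

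MiR-34a-5p overlapped between the diets. It stood at 104, 331, 196 and 292 RPM in hyperlipidemic replicates 1 to 4 and at 329, 259, 312 and 182 RPM in normal replicates 1 to 4. The lowest library was hyperlipidemic replicate 1, and the other 3 hyperlipidemic libraries lay within or just above the normal range. The means were 231 ± 102 and 271 ± 66.1 RPM (SD, n = 4 each), with a fitted log2 fold of -0.32 (SE 0.40), on the scale of log2(RPM + 0.475) used for all fitted folds. Without hyperlipidemic replicate 1 the log2 fold was 0.02.

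The other strand of this hairpin, miR-34a-3p, was far lower and did not follow the 5p strand across libraries. It stood at 8.32, 8.25, 7.57 and 9.59 RPM in hyperlipidemic libraries and at 10.3, 10.8, 5.05 and 5.13 RPM in normal ones. The hyperlipidemic libraries lay inside the normal range (log2 fold 0.18, SE 0.45), on 118 reads in hyperlipidemic and 46 in normal libraries. The 5p strand held 92.6% to 98.4% of the miR-34a level, lowest in hyperlipidemic replicate 1, where miR-34a-5p was at its lowest and the 3p strand was not.

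MiR-34c-5p was lower in every hyperlipidemic library than in any normal one. It stood at 29.5, 71.7, 37.5 and 57.5 RPM in hyperlipidemic libraries and at 88.1, 94.6, 124 and 192 RPM in normal ones. The means were 49.1 ± 19.2 and 125 ± 47.5 RPM (SD, n = 4 each; log2 fold -1.35, SE 0.39). The gap was narrow: the exact 95% counting intervals of hyperlipidemic replicate 2 (62.7 to 81.7 RPM) and normal replicate 1 (74.7 to 103 RPM) overlapped. These intervals, here and below, cover counting error only.

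Its neighbour miR-34b-5p, printed above with 2 bases of difference, overlapped between the diets. It stood at 4.16, 10.5, 4.16 and 8.09 RPM in hyperlipidemic and at 15.4, 8.60, 7.06 and 7.06 RPM in normal libraries, with a log2 fold of -0.51 (SE 0.51) on 91 and 57 reads. MiR-34b was the one hairpin in which the 3p strand was the larger in most libraries: miR-34b-3p was above miR-34b-5p in 7 of 8, the exception being normal replicate 3 with 7 and 5 reads. MiR-34b-3p stood at 9.36, 13.0, 8.70 and 10.2 RPM in hyperlipidemic and at 16.6, 9.31, 5.05 and 9.62 RPM in normal libraries (log2 fold 0.12, SE 0.46, and -0.16 without normal replicate 3), and the hyperlipidemic libraries lay within the normal range. In miR-34c the 5p strand held 95.3% or more of the level in every library. MiR-34c-3p had 28 reads in all and was at 0 in normal replicates 2 and 3, which allows up to 2.15 and 3.03 RPM at 3 reads, and it fell below the filter for testing.

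Across libraries the pair of neighbouring hairpins did not keep a constant ratio. MiR-34b-5p made up 10.0% to 12.7% of the reads of miR-34b-5p and miR-34c-5p together in hyperlipidemic libraries (11.9% ± 1.25, SD, n = 4). In normal libraries it made up 14.9%, 8.33%, 5.38% and 3.55% (8.05% ± 4.99, SD, n = 4). The hyperlipidemic libraries were close to each other and the normal ones were spread on both sides of them. The exact binomial 95% interval of normal replicate 4 (1.78% to 6.26%) lay below that of normal replicate 1 (10.1% to 21.0%), so that the spread within the normal group exceeded counting error.

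MiR-449a-5p was lower in every hyperlipidemic library on the deposited scale. It stood at 59.7, 139, 137 and 103 RPM in hyperlipidemic and at 148, 163, 238 and 162 RPM in normal libraries. The means were 110 ± 37.2 and 178 ± 41.0 RPM (SD, n = 4 each; log2 fold -0.74, SE 0.34). Hyperlipidemic replicates 2 and 3 almost reached normal replicate 1, and the groups overlapped once the libraries were rescaled by median-of-ratios factors or to their sum without erythroid miRNAs. MiR-449a-3p had 17 reads in all, was at 0 in hyperlipidemic replicate 3 and normal replicate 1, and was not tested.

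MiR-449c-5p showed the widest gap of the family. It stood at 1.66, 6.66, 3.78 and 3.30 RPM in hyperlipidemic libraries, on 8, 21, 10 and 11 reads. In normal libraries it stood at 13.2, 22.2, 34.3 and 13.5 RPM, on 23, 31, 34 and 21 reads. The lowest normal library was at about 2 times the highest hyperlipidemic one, and their exact 95% counting intervals (8.34 to 19.7 and 4.13 to 10.2 RPM) still overlapped. The ratio of the hyperlipidemic over the normal mean was 0.185, and the fitted log2 fold of -2.31 (SE 0.54) was the lowest of the 396 catalogued miRNAs tested.

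The pair of miR-449 hairpins lie within 1436 bases of each other, and their 5p strands put the 8 libraries in the same order of level. The size of the difference was not the same in both. MiR-449c-5p made up 2.71%, 4.59%, 2.68% and 3.10% of the reads of both 5p strands in hyperlipidemic libraries and 8.19%, 12.0%, 12.6% and 7.69% in normal ones. The groups did not overlap in this share (3.27% ± 0.898 against 10.1% ± 2.53, SD, n = 4 each), which does not depend on how libraries are scaled. The share is not free of the difference in depth described below. The exact binomial 95% intervals of the closest libraries, hyperlipidemic replicate 2 (2.86% to 6.92%) and normal replicate 4 (4.82% to 11.5%), overlapped. Expressed as a ratio, miR-449a-5p was 20.8 to 36.3 times miR-449c-5p in hyperlipidemic and 6.94 to 12.0 times in normal libraries.

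**Figure D2:**
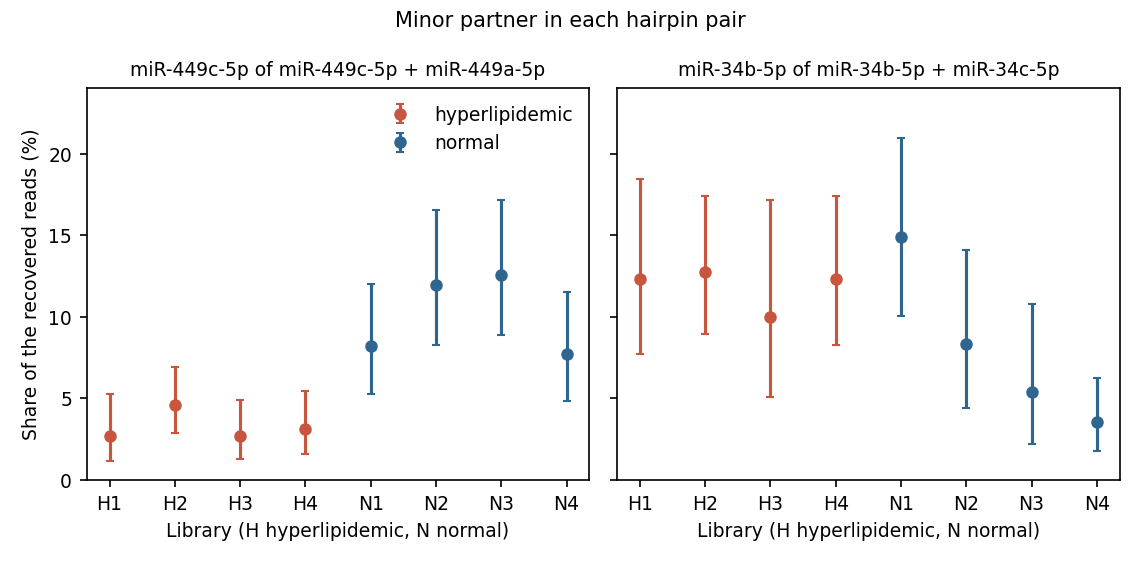
Share of the recovered reads held by the less abundant partner of each neighbouring hairpin pair, per library, with exact binomial 95% intervals. MiR-449c-5p lies at 2.68% to 4.59% in hyperlipidemic and 7.69% to 12.6% in normal libraries, whereas the share of miR-34b-5p overlaps between the diets and is spread widely among normal libraries.

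Summed over the 5 seed-bearing strands the diets overlapped. The sum was 199, 559, 379 and 464 RPM in hyperlipidemic and 594, 547, 716 and 556 RPM in normal libraries (400 ± 153 against 603 ± 77.6 RPM, SD, n = 4 each). Only hyperlipidemic replicate 2 reached the normal range, and hyperlipidemic replicate 1 was lowest. MiR-34a-5p held 51.8% to 62.9% of this sum in hyperlipidemic and 32.8% to 55.5% in normal libraries. MiR-449c-5p, the member with the widest gap, held 0.711% to 1.19% and 2.22% to 4.80%, so that it carried little of the seed's total.

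**Figure D3:**
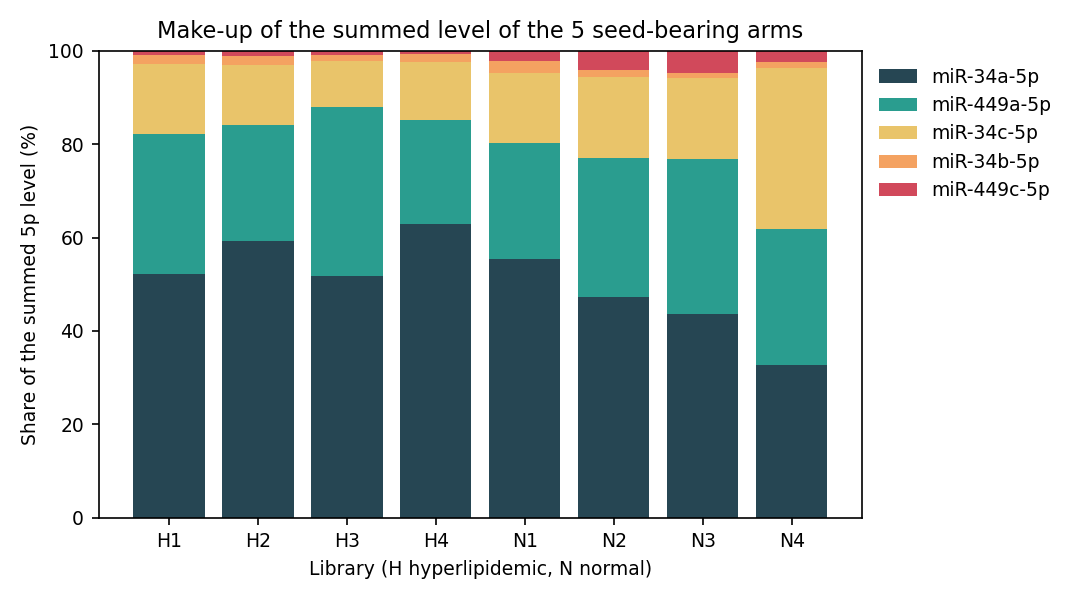
Make-up of the summed level of the 5 seed-bearing strands in each library, as a percentage of that sum in RPM. MiR-34a-5p holds 32.8% to 62.9% and miR-449a-5p 22.2% to 36.2%; normal replicate 4 has the largest share of miR-34c-5p (34.5%).

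Of the 9 rows, 7 passed the filter on low values, and 5 of these had a fitted log2 fold below 0. The median log2 fold of these 7 was -0.51, beside -0.20 over the 396 catalogued miRNAs tested and -0.10 over all 696. None of the 7 passed an adjusted p of 0.05 by limma, where 0.718% of all 696 miRNAs did. Those 5 were all predicted miRNAs, and none of the 396 catalogued ones, the class of the whole family, passed in this fit. Of the 7, 2, both lower, had an unadjusted p under 0.05, where 17.8% of all 696 did. By limma with voom weights on recovered reads none of the 7 passed, where 0% of the 396 did, and 3 had an unadjusted p under 0.05, where 81 of the 396 did. With catalogued miRNAs fitted and adjusted alone, 1 of the 7 passed, where 0.758% of them did; it was miR-449c-5p, whose difference in these libraries chose the family, so this is no evidence for it. Groups did not overlap, with lower hyperlipidemic values, for 3 of the 7 (miR-34c-5p, miR-449a-5p and miR-449c-5p), where 10.6% of the catalogued miRNAs tested did so. None of the 7 was higher without overlap, where 1.01% were, which makes 11.6% without overlap in either direction. As the family was chosen with this contrast known, these counts describe it and carry no further weight. In the authors' deposited table miR-449c-5p (log2 fold -2.06) and miR-34c-5p (-1.33) are called down, at the authors' adjusted p of 0.236 and 0.293, and the other 7 rows unchanged, where 3.97% of catalogued rows are called down.

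The catalogued miRNAs as a whole had a median log2 fold below 0 on the deposited scale, and rescaling moved it. Median-of-ratios scaling moved the median log2 fold of all miRNAs tested from -0.10 to 0.10 and that of catalogued ones from -0.20 to -0.01. Relative to the catalogued median of the deposited scale, the log2 fold was -2.11 for miR-449c-5p, -1.15 for miR-34c-5p, -0.54 for miR-449a-5p, -0.30 for miR-34b-5p and -0.12 for miR-34a-5p, and it was 0.39 for miR-34a-3p and 0.32 for miR-34b-3p. All 7 signs were the same under both rescalings. MiR-449c-5p and miR-34c-5p had no overlap between the diets under both, where 5.81% (median-of-ratios) and 7.83% (without erythroid miRNAs) of catalogued miRNAs tested were lower without overlap and 2.27% and 2.02% higher. No member passed an adjusted p of 0.05 by limma on these scales, where 1.15% and 0.862% of all miRNAs did.

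**Figure D4:**
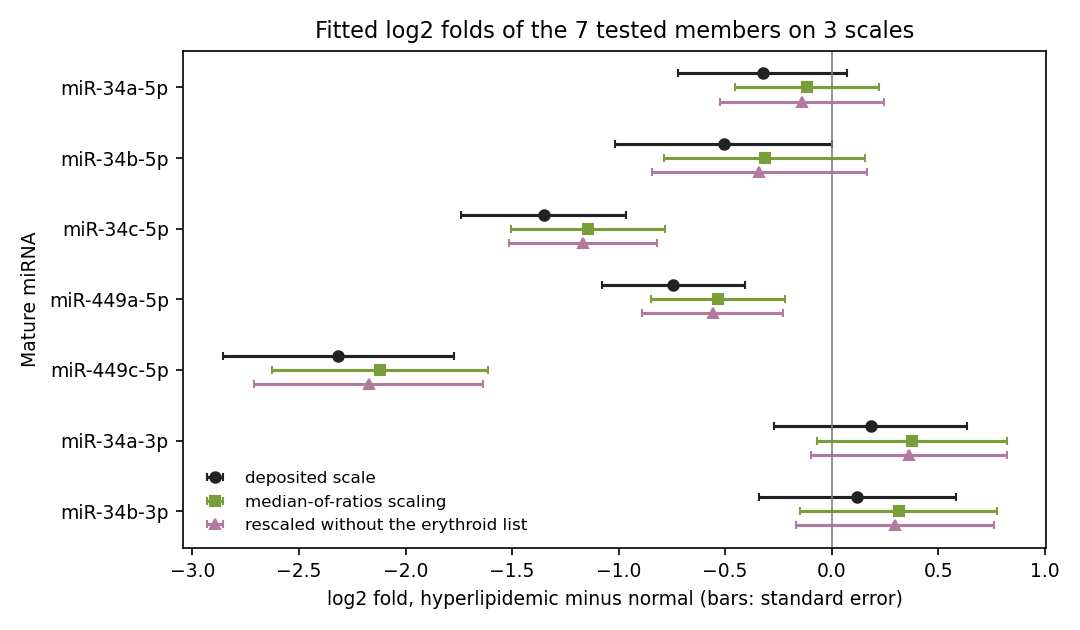
Fitted log2 fold (hyperlipidemic minus normal) of the 7 tested members with standard errors, on the deposited scale, after median-of-ratios scaling and after rescaling without erythroid miRNAs. The 5p strands lie below 0 and the 3p strands above 0 on all 3 scales, and miR-449c-5p lies lowest, between -2.31 and -2.12.

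Depth moved with the miR-449 levels. With the libraries set in order of the reads behind their scale, from 990804 in normal replicate 3 to 4809883 in hyperlipidemic replicate 1, miR-449c-5p fell at 6 of the 7 steps between neighbours and miR-449a-5p at 6. The exception in both was the step from hyperlipidemic replicate 3 to 2. The order also held within the normal group, from 34.3 to 13.2 RPM of miR-449c-5p. MiR-34a-5p and miR-34c-5p fell at 5 of the 7 steps and miR-34b-5p at 4. The diets do not overlap in depth, so depth and diet cannot be told apart here. That holds as well for the share of miR-449c-5p in the reads of both miR-449 5p strands. It was 12.6% in the shallowest library and 2.71% in the deepest, and lowest (2.68%) in hyperlipidemic replicate 3.

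**Figure D5:**
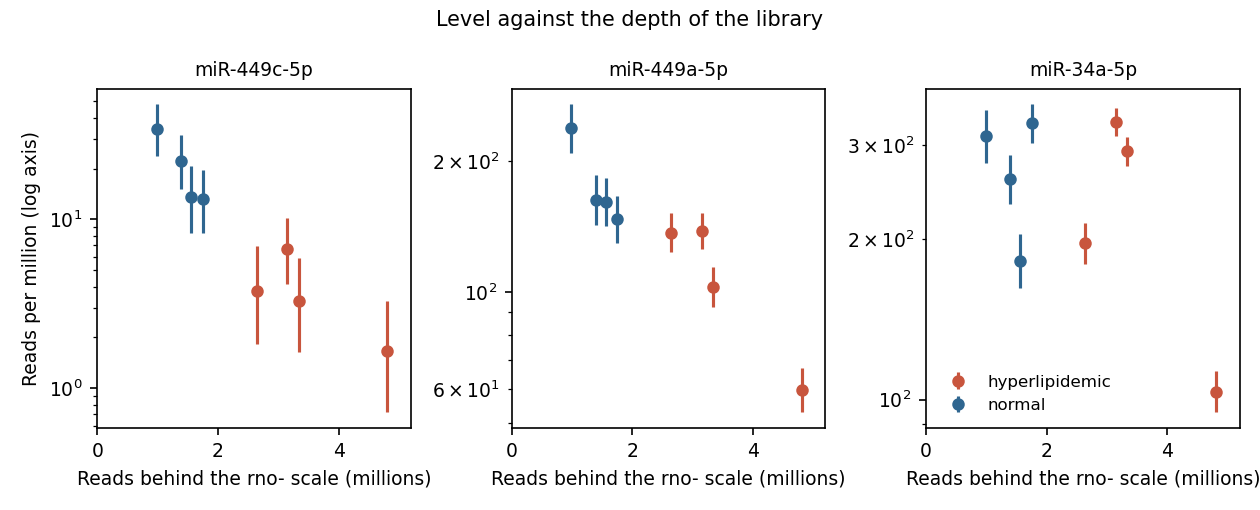
Level of miR-449c-5p, miR-449a-5p and miR-34a-5p (RPM, log axis, exact 95% Poisson intervals) against the reads behind the catalogued scale of each library, in units of 1000000 reads. Both miR-449 strands are highest in the shallowest library and lowest in the deepest one. MiR-34a-5p is also lowest in the deepest library and has high values at shallow and middle depths.

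Of the blood-cell lists, only the lymphoid one separated the diets, and the myeloid and erythroid ones overlapped. The lymphoid list (miR-150, miR-342, miR-181a, miR-181b; 10 of 10 rows above 0 in every library) held 1.22% to 1.61% of the catalogued signal in hyperlipidemic and 2.08% to 2.75% in normal libraries, without overlap. Its rows did not all move one way. MiR-181a-5p, the most abundant, stood at 7800 ± 1258 against 14165 ± 2274 RPM without overlap. MiR-181a-1-3p (288 against 621 RPM), miR-181b-1-3p (13.1 against 27.0 RPM) and miR-342-5p (2.48 against 5.59 RPM) were also lower without overlap. Hyperlipidemic means were higher only for miR-150-5p (1868 ± 211 against 1729 ± 309 RPM) and miR-342-3p (1448 ± 202 against 1396 ± 535 RPM, SD, n = 4 each), which overlapped. The remaining rows were lower with overlap. The myeloid list (miR-223, miR-142; 4 of 4 rows) held 14.8% to 19.96% and 6.08% to 20.2%, and the erythroid list (5 of 5 rows) the shares given above. Muscle miRNAs held 0.0203% to 0.483% and 0.0429% to 0.344% (7 of 10 rows above 0 in every library). No marker row was at 0 in all libraries. The part of these cell types in the family's levels was not tested. Without normal replicates 3 and 4, which had the least erythroid signal, the log2 fold was -2.15 for miR-449c-5p, -0.97 for miR-34c-5p and -0.57 for miR-449a-5p.

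Epithelial miRNAs were looked at because the miR-449 cluster is best known from epithelia. The epithelial list (17 rows, 9 above 0 in every library and 9 tested, none at 0 throughout) held 0.0474% to 0.0615% of the signal in hyperlipidemic and 0.0337% to 0.0551% in normal libraries. Its log2 folds were below 0 in 4 of 9 tested rows and above in 5, with a median of 0.30. By limma none passed an adjusted p of 0.05, as none of the 396 catalogued miRNAs tested did. An unadjusted p under 0.05 was found for 2 of the 9, both higher. Of the 396, 62 had such a p, 12 of them higher and 50 lower. Its 4 highest rows were miR-141-3p (log2 fold 0.72, SE 0.45), miR-203a-3p (0.30, SE 0.32), miR-96-5p (0.30, SE 0.38) and miR-200c-3p (-0.23, SE 0.36). Among the tested rows, the one without overlap was miR-205, named after its value was seen, at 48.8 ± 17.0 against 14.2 ± 3.80 RPM (SD, n = 4 each), higher in hyperlipidemic libraries. Of the catalogued miRNAs tested, 1.01% were higher without overlap and 10.6% lower. Below the filter, miR-203a-5p (0.95 to 2.40 RPM) and miR-375-3p (0.76 to 4.37 RPM) were above 0 in all hyperlipidemic libraries and listed at 0 in all normal ones. The normal libraries are shallower: 3 reads would be 1.72 RPM in normal replicate 1 and 3.03 RPM in normal replicate 3. A 0 there does not show absence. Of the other rows below the filter, miR-183-3p and miR-429 had lower hyperlipidemic means and the rest had higher ones.

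Other miRNAs described as p53-regulated did not move one way. The list held miR-192, miR-194, miR-215, miR-107, miR-141, miR-200c, miR-143, miR-145, miR-15a and miR-16, and shares miR-141 and miR-200c with the epithelial list; miR-215 matched no row and was not analysed here. Of 14 tested rows, 7 had log2 folds below 0 and 7 above, with a median of -0.07. By limma none passed an adjusted p of 0.05, as none of the 396 catalogued miRNAs tested did. An unadjusted p under 0.05 was found for 1 of the 14, which was lower. Of the 396, 62 had such a p, 50 of them lower and 12 higher. The highest rows were miR-16-5p (log2 fold 0.27, SE 0.30), miR-15a-5p (0.44, SE 0.41), miR-143-3p (-0.46, SE 0.43) and miR-145-5p (0.54, SE 0.40), of which miR-16 and miR-15a curb the cell cycle and miR-143 and miR-145 mark smooth muscle. The tested row without overlap was miR-143-5p, named after its value was seen, at 30.0 ± 8.88 against 61.0 ± 13.6 RPM (SD, n = 4 each). Of the catalogued miRNAs tested, 10.6% were lower without overlap and 1.01% higher.

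The catalogued miRNAs whose levels most resembled miR-449c-5p were ranked by Pearson's r of log2 levels over the 8 libraries, among 395 others. They were miR-223-5p (r = 0.96), miR-181b-1-3p (0.96), miR-181a-5p (0.94), miR-449a-5p (0.90) and miR-342-5p (0.89). All 5 also separated the diets, so part of each r is the difference between groups. After each group's mean was subtracted, r was 0.88 for miR-223-5p, 0.76 for miR-181b-1-3p, 0.70 for miR-181a-5p, 0.88 for miR-449a-5p and 0.53 for miR-342-5p. Spearman's rho was 1.00 for miR-223-5p and for miR-449a-5p. MiR-223-5p is the minor strand of a myeloid miRNA, and the main strand, miR-223-3p, overlapped between the diets (27624 ± 2528 against 23516 ± 11652 RPM, SD, n = 4 each). These r values are descriptions over libraries that also differ in depth.

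MiR-34a-5p resembled other miRNAs. The highest r over the 8 libraries were those of miR-345-5p (0.91), miR-466c-5p (0.90), miR-466b-5p (0.85), miR-674-5p (0.84) and miR-181b-5p (0.83), and none of these 5 separated the diets. The family members nearest to it by r were miR-34b-5p (r = 0.78, 12th of 395) and miR-449a-5p (0.68, 27th), while its own 3p strand was 230th (0.15). Spearman's rho was 0.80 for miR-34b-5p, 0.31 for miR-449a-5p and 0.12 for miR-34a-3p. For miR-34c-5p, examined after its values were seen, the first was miR-21-5p (r = 0.95, and 0.86 with group means subtracted), at 36230 ± 6760 against 69100 ± 22806 RPM (SD, n = 4 each). Nearly tied with it were miR-143-5p (0.95), miR-542-3p (0.95), miR-872-3p (0.95) and miR-450a-5p (0.94). With group means subtracted these had r of 0.83, 0.84, 0.86 and 0.83. All of them, and miR-21-5p, separated the diets. The neighbour of miR-34c-5p, miR-34b-5p, ranked 158th (r = 0.51), and the neighbouring miR-449 strands ranked 4th and 5th for each other.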

How the data were processed

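Rnor_6.0 (build) and bcl2fastq 1.8.4 are listed in the submitters' processing notes; aligner, miRNA reference and counting rule were not stated. Per the labels' protocols, TruSeq small RNA libraries were size-selected at 140 to 160 bp and sequenced as single reads of 50 bp. The authors deposited 1 table whose values, named FPKM, are a signal in reads scaled to 1000000 (RPM), separately in 604 catalogued and 370 predicted miRNAs, with no length in it. The authors also deposited a fold (ratio), its log2 and p-values, whose test was not stated.

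Values up to 20 reads were whole multiples of 1 read within 0.1 read in 100% of cases per class and library, so whole reads were recovered by class. Exact Poisson and exact binomial (Clopper-Pearson) intervals at 95% use these reads and cover counting error only. The fit was limma 3.58.1 in R 4.3.3 (two-sided, variance trend) on log2(value + 0.475), the pseudocount being the median of the 8 libraries' lowest values other than 0. It took miRNAs above 0 in at least 4 libraries with a mean of at least 2.375 RPM, 696 in all, with Benjamini-Hochberg adjustment over all of them. Its code was tried on simulated counts with the same dispersion for every miRNA. That is a simpler case than these libraries, so it does not show how well the fit performs on them. Folds of members with few reads are shrunk by the pseudocount.

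Groups came from the source labels and replicate numbers from the titles. Same-numbered libraries did not deviate together (r of deviations from group means -0.37 to 0.14 over 396 miRNAs), so no pairing was used. Members, lists and tests were chosen with earlier results of these data known. Named miRNAs were all members, the 5 most like miR-449c-5p and miR-34a-5p by Pearson's r, and the 4 highest of each list; others are marked. The endothelial marker miR-126 matched no row under that name and was not used. Sequences and neighbours come from RefSeq tables of GRCr8, not the authors' build.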

Additional observations from a re-analysis of the deposited data

Results flagged for a closer look

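In 54 groups of 4 libraries examined (the members, their sums, shares and ratios), 4 held a library far from the other 3, where chance alone gives about 1 in 20, and the measures share libraries and reads. The share of the summed 5p level held by miR-34c-5p was 34.5% in normal replicate 4, against 14.8% to 17.3% in the other normal libraries. The ratio of miR-34c-5p over miR-34b-5p was 9.0 in hyperlipidemic replicate 3, against 6.85 to 7.11 in the other hyperlipidemic ones, on 11 reads of miR-34b-5p. MiR-449a-3p was at 0 in hyperlipidemic replicate 3, where 3 reads would be 1.13 RPM, and at 0.90 to 1.04 RPM in the others. The 5p strand held 100% of miR-449a in normal replicate 1, where no 3p read was counted, against 99.1% to 99.2% in the other normal libraries.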

How the results depend on the processing

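The log2 folds of miR-449c-5p, miR-34c-5p, miR-449a-5p and miR-34b-5p stayed below 0 under all 17 alternatives: -2.60 to -1.52, -1.56 to -0.97, -0.88 to -0.48 (without hyperlipidemic replicate 1) and -0.84 to -0.26. The -1.52 of miR-449c-5p came with a pseudocount 10 times larger, which by its construction shrinks low members. The signs of the 3 others were not fixed: miR-34a-5p ran from -0.54 to 0.02 (without hyperlipidemic replicate 1), miR-34a-3p from -0.31 to 0.38 and miR-34b-3p from -0.28 to 0.38, both lowest without normal replicates 3 and 4; miR-34b-3p was also below 0 without normal replicate 3 (-0.16). No family member passed, except miR-449c-5p with catalogued miRNAs alone (1 member). The 5 miRNAs past the threshold in the whole table became 12 with the pseudocount 10 times larger, 8 with median-of-ratios scaling, 3 with catalogued miRNAs alone, 0 with voom on recovered reads (81 at an unadjusted p under 0.05) and 0 with the replicate number as a block (113 at an unadjusted p under 0.05), where the numbers were not shown to pair libraries; leaving out 1 library gave 0 to 13. The cause was not tested. The voom fit and the omission of normal replicates 3 and 4 were chosen after seeing the data. Count models planned as alternatives were not run on the deposited columns, which mix 2 scales, and voom on the recovered catalogued reads was run instead. Reads limit miR-449c-5p (8 to 34 a library), miR-34b-5p and the 3p strands most.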
